A study of Ichthyophis bannanicus with 29 samples.

Results

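Circulating blood was compared with the heart, an organ that holds much blood, in *Ichthyophis bannanicus*. This caecilian is an amphibian without limbs that lives in soil. The comparison used the 6 libraries that the labels give as blood (3) and heart (3), out of 29 libraries from 10 tissues in the series. It took the genes at 1 transcript per 1000000 (TPM) or more in at least 2 of these 6 libraries, which were 35046 of the 53113 assembled genes in the deposited table. Of the other 18067 genes, 9486 were listed at 0 in all 6 libraries. Polyadenylated RNA was captured for sequencing, and each library has its own column of values. The labels give no animal, age, sex or treatment for either tissue, and they do not say whether replicates came from separate animals. All p-values thus rest on the spread between libraries alone, and that spread may be technical.

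Blood carries red cells, white cells and thrombocytes, and the red cells of amphibians keep their nucleus, so circulating cells hold messenger RNA. The heart is built of muscle cells that hold contractile proteins and many mitochondria, together with vessels, connective tissue and the blood in its chambers. In bulk samples such as these, fewer cells of a type and less RNA per cell cannot be told apart. The table names genes by assembly IDs only. None of the 33 marker symbols of blood cells, heart muscle and vessels looked for occurs among the IDs, which number 53113 and all have the assembler's form. The tissue labels could therefore not be checked against markers, and no function is given to any gene below. An assembled gene can be a fragment or a merger of near-identical copies, so counts of genes are counts of assembled sequences.

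A few genes held a large share of TPM in blood. In each library the leading 10 genes by TPM took 45.0%, 53.9% and 53.8% of all TPM in blood replicates 1, 2 and 3, against 17.4%, 28.8% and 15.3% in heart replicates 1, 2 and 3. All blood libraries lay above all heart libraries, and heart replicate 2 was the highest of the heart. The means were 50.9% ± 5.12 in blood and 20.5% ± 7.26 in heart (SD, n = 3 each), a difference of 30.4 percentage points. An exact two-sided permutation test gave p = 0.1, the smallest that 3 against 3 libraries allow. Reaching 50% of TPM took 34, 7 and 7 genes in blood replicates 1, 2 and 3, against 368, 166 and 436 genes in heart replicates 1, 2 and 3. Blood replicate 1 was the least concentrated of the blood libraries.

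**Figure D1:**
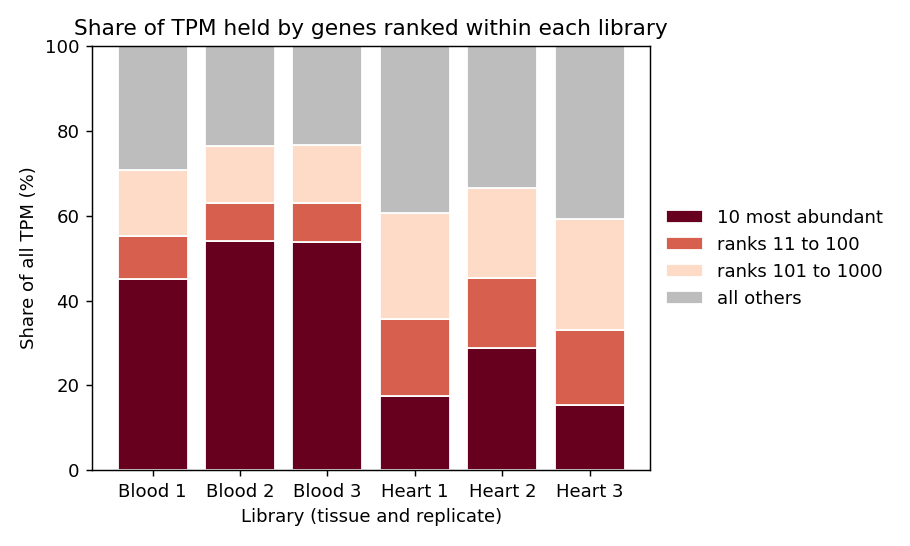
Stacked bars give the share of all TPM (%) held by the 10 most abundant genes, by ranks 11 to 100, by ranks 101 to 1000 and by all others in each blood and heart library, with ranks made within each library. The 10 most abundant genes held 45.0% to 53.9% in blood and 15.3% to 28.8% in heart.

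Fewer genes reached 1 TPM in blood. They numbered 27816, 25565 and 25468 in blood replicates 1, 2 and 3, against 31745, 30913 and 31855 in heart replicates 1, 2 and 3. The means were 26283 ± 1329 in blood and 31504 ± 515 in heart (SD, n = 3 each; exact two-sided permutation p = 0.1, the smallest possible here). Each library adds up to 1000000 TPM whatever its depth, so how deeply these counts were sampled is unknown, and genes that take a large share lower the TPM of all others.

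The 10 most abundant genes of blood were of unlike kinds. By mean TPM, 7 of them were also among the 10 most abundant genes of heart, and 8 were called higher in blood (limma, Benjamini-Hochberg adjusted p under 0.05 and a difference of 1 or more on the log2 scale of TPM + 1), where 8.34% of all tested genes were. Choosing genes by their level in blood favours such a call, so this count is a description. The genes at ranks 1, 2, 5 and 6 were also among the 10 most abundant genes of at least 6 of the 8 other tissues. Together they took 24.1%, 38.7% and 36.1% of TPM in blood replicates 1, 2 and 3, against 11.6%, 21.0% and 10.6% in heart replicates 1, 2 and 3. Blood replicate 1 was the lowest of the blood libraries for these genes, and heart replicate 2 the highest of the heart. In the other 8 tissues their mean share ran from 5.04% ± 0.589 in skin to 19.8% ± 9.73 in lung (SD, n = 3 each).

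Ranks 3, 4, 7 and 8 were the other genes called higher, and each was among the 10 most abundant genes of at most 1 other tissue. They took 19.9%, 14.0% and 16.6% of TPM in blood replicates 1, 2 and 3, against 3.12%, 5.34% and 1.27% in heart replicates 1, 2 and 3. Blood replicate 1 was here the highest of the blood libraries. In the other tissues these genes averaged at most 2.10% ± 1.39 of TPM, in spleen, and at the other end 0.0289% ± 0.0213, in stomach (SD, n = 3 each). Heart, at 3.24% ± 2.04 (SD, n = 3), thus held a mean above that of each of the 8 other tissues. That mean rests partly on heart replicate 2, a library singled out for its high share of genes abundant in blood. The ranking is thus a description. Lung replicate 3 at 3.26% and spleen replicate 1 at 3.65% lay above heart replicates 1 and 3. Spleen replicate 2 at 1.69%, liver replicate 3 at 1.69% and kidney replicate 2 at 1.5% also lay above heart replicate 3. Set against the blood mean of the same genes, the heart replicates 1, 2 and 3 held 18.6%, 31.7% and 7.53% for ranks 3, 4, 7 and 8. For ranks 1, 2, 5 and 6 the heart replicates held 35.1%, 63.9% and 32.0%. The split of the leading genes into these sets was made after their values were seen and has no test.

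**Figure D2:**
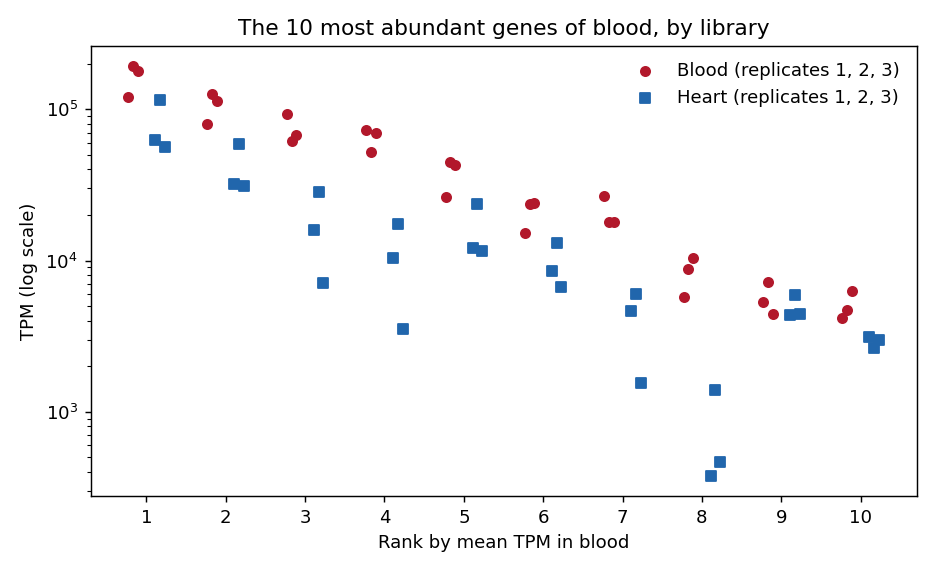
TPM (log scale) of the 10 most abundant genes of blood, ordered by mean TPM in blood, with 1 point per library (circles, blood; squares, heart; replicates 1 to 3 from left to right). Heart replicate 2 is the highest heart library for ranks 1 to 9, and at rank 9 the tissues overlap.

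TRINITY_DN132001_c0_g1, at rank 1, had 119864, 192044 and 180265 TPM in blood replicates 1, 2 and 3, against 62878, 114398 and 56078 TPM in heart replicates 1, 2 and 3. Its libraries did not overlap, but heart replicate 2 came close to blood replicate 1. Blood minus heart, this was 1.12 ± 0.32 on the log2 scale (SE; adjusted p = 0.0306, limma with Benjamini-Hochberg adjustment). Without heart replicate 2 it was 1.44. That library was singled out for its high share of genes abundant in blood, so this rise is a description. The call was lost without blood replicate 2, blood replicate 3, heart replicate 1 or heart replicate 3, with adjusted p from 0.0941 to 0.103 in limma, and ranks 5 and 6 lost theirs without the same libraries. Rank 8 had the largest difference of the 10 genes. It was at 5738, 8766 and 10390 TPM in blood replicates 1, 2 and 3 and at 378, 1401 and 469 TPM in heart replicates 1, 2 and 3, a log2 difference of 3.68 ± 0.51 (SE; limma, adjusted p = 0.00167). Rank 9 differed by 0.19 ± 0.22 on the log2 scale (SE; limma, adjusted p = 0.52).

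Over the whole table, many more genes were lower in blood than higher. Of 35046 genes tested, 12698 (36.2%) were called, 2923 (8.34%) as higher in blood and 9775 (27.9%) as lower. Calls higher in blood were thus 23.0% of all calls. Of the lower genes, 46.5% averaged 1 TPM or more in blood, where 76.5% of all tested genes did. Of the higher genes, 69.9% did so in heart, against 92.1% of all tested genes. Passing the filter through 1 tissue alone favours a difference toward that tissue, so the counts rest partly on the filter. Every blood library exceeded every heart library for 5454 genes (15.6%) and every one was below for 13587 (38.8%). Nearly all called genes were among these, 2900 of the higher and 9756 of the lower. The call and the lack of overlap come from the same 6 libraries, so these counts are a description. The size of the differences was uneven too. A log2 difference of 3 or more was reached by 163 of the higher and 2231 of the lower genes, and one of 5 or more by 5 of the higher and 465 of the lower.

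The balance of the calls rested on the scale. The median log2 difference of all tested genes was -0.40 in TPM as deposited. It moved by 0.36 when libraries were rescaled by the median of ratios, and by 0.53 when they were brought to an equal sum without the 16 genes that were among the 10 most abundant of any of the 6 libraries. Rescaled by the median of ratios, 5057 genes (14.4%) were higher in blood and 7610 (21.7%) lower, so 39.9% of calls were higher. With the equal sum without abundant genes, 6734 (19.2%) were higher and 7304 (20.8%) lower, a share of 48.0%. Both rescalings raise blood relative to heart, so by construction they favour calls higher in blood. By the median of ratios, all 7610 lower genes were among the 9775. With the equal sum, which raises values in both tissues, genes near the floor in blood can still move down. There 7254 of the 7304 lower genes were among the 9775. Of the 9775 lower genes, 7057 (72.2%) were called lower on all 3 scales.

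**Figure D3:**
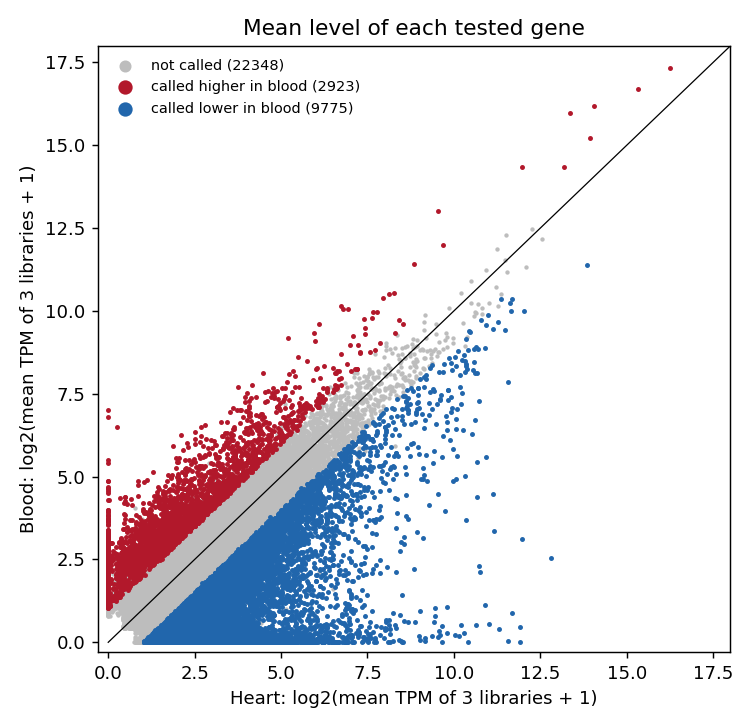
Each point is 1 of the 35046 tested genes, with log2(mean TPM + 1) in heart on the x axis and in blood on the y axis, and the line marks equal levels. The 9775 genes called lower in blood reach far below the line, down to blood levels at 0, while the 2923 called higher lie closer to it.

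Most genes higher in blood were of low to moderate level there. Their mean in blood had a median of 10.4 TPM (quartiles 5.30 and 24.3), against 3.59 TPM for all tested genes. The call itself favours a high level in blood. Of the higher genes, 18 averaged 1000 TPM or more. The share called higher is given by level in blood, which itself enters the difference, and low genes can hardly reach a difference of 1 on the scale of TPM + 1. It was 5.37% of the 26731 tested genes under 10 TPM in blood, 17.1% of the 7610 genes from 10 to 100 TPM, 25.4% of the 662 from 100 to 1000 TPM and 41.9% of the 43 above. For 1922 of the 2923 genes (65.8%), blood had the highest mean of the 10 tissues, where it did for 12.6% of all tested genes. The genes were selected for a level in blood above that in heart, so heart cannot have the highest mean and the share for blood is a description. Ovary had the highest mean for 9.65% of the higher genes and testis for 6.40%, below their shares of all tested genes, 18.3% and 21.8%. Skin had it for 4.96% and spleen for 3.04%, where they did for 4.15% and 3.85% of all tested genes. The large share that selection gives to blood leaves less for these tissues, so their shares are a description and not comparable one to one. In all 10 tissues the mean reached 1 TPM for 1141 of the higher genes (39.0%), against 48.4% of all tested genes. Heart is among the 10 and the call favours low levels there. In heart 69.9% of the higher genes averaged 1 TPM or more, against 92.1%, so the share over 10 tissues is a description. At the other end, 327 of the higher genes were listed at 0 in every heart library and so passed the filter through blood alone.

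The largest differences on the blood side mostly belonged to genes that were higher still in skin or spleen. Of the 20 genes with the largest log2 difference, 12 had their highest mean in skin, 3 in spleen and 5 in blood. TRINITY_DN14175_c0_g1, the first of them, had 143, 138 and 99.9 TPM in blood replicates 1, 2 and 3 and was listed at 0 in all heart libraries. It passed the filter through blood alone, so no test is given for it. It ranged from 169 to 233 TPM in skin and from 114 to 194 TPM in spleen. In kidney, liver, lung, ovary, stomach and testis every library was listed at 0.

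This on and off pattern was shared by 61 genes, which were picked out after their values were seen. Each was at 1 TPM or more in all 9 libraries of blood, skin and spleen and listed at 0 in all 20 others, heart included. Among the 120 possible sets of 3 tissues, every other set had at most 1 gene of this kind. The reverse pattern, 1 TPM or more in the 20 libraries and 0 in the 9, had 0 genes. All 61 genes were called higher in blood, where 8.34% of tested genes were, but a gene at 0 in heart that passed the filter had to differ, so nothing is read from that count. They made up 11 of the 20 largest differences. Their summed level was 877, 810 and 634 TPM in blood replicates 1, 2 and 3, against 0 in each heart library. In skin the sum ran from 3892 to 6908 TPM and in spleen from 968 to 1184 TPM. The mean was highest in skin for 36 of these genes, in spleen for 25 and in blood for 0. Without them 2862 genes were higher in blood. The labels name no animal or batch for any tissue, so an origin that blood shares with skin and spleen but not with heart cannot be told apart from tissue in any blood and heart difference given here. What the pattern rests on was not tested.

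Genes lower in blood reached larger differences. Their mean in heart had a median of 9.96 TPM (quartiles 4.80 and 23.3), and 74 averaged 1000 TPM or more in heart. By level in heart, with the same limit, the share called was 20.8% of the 23537 tested genes under 10 TPM in heart and 69.2% of the 107 at 1000 TPM or more. Blood was listed at 0 in every library for 1259 of the 9775 genes, so these 1259 passed the filter through heart alone. Heart had the highest mean of the 10 tissues for 3045 (31.2%), where it did for 13.0% of all tested genes. As these genes were selected for a level in heart above that in blood, blood cannot have the highest mean and this share is a description. Testis had the highest mean for 20.5% of the lower genes, ovary for 15.0% and kidney for 9.74%, where they did for 21.8%, 18.3% and 9.12% of all tested genes. Selection changes what blood and heart leave for these tissues, so their shares are a description too. Of the 20 largest differences on this side, all 20 had their highest mean in heart.

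TRINITY_DN8361_c1_g1 had the largest difference on the heart side. It was at 0, 0.0155 and 0 TPM in blood replicates 1, 2 and 3, against 3717, 3527 and 4241 TPM in heart replicates 1, 2 and 3. Blood minus heart, this was -11.89 on the log2 scale. The gene passed the filter through heart alone, so no test is given for it. Outside heart its highest library was in lung, at 48.0 TPM. TRINITY_DN204_c0_g2 was the most abundant of the genes called lower. It was at 3594, 1963 and 2409 TPM in blood replicates 1, 2 and 3 and at 14906, 11667 and 17693 TPM in heart replicates 1, 2 and 3, a log2 difference of -2.50 ± 0.27 (SE; limma, adjusted p = 0.000545). This gene was abundant everywhere, with means from 4620 ± 1761 TPM in lung to 9308 ± 400.3 TPM in skin over the other tissues (SD, n = 3 each), so blood had the lowest mean and heart the highest of the 10.

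Some genes were on or off by tissue across the whole series. A level of 1 TPM or more in every heart library with 0 in all 26 others was found for 31 genes, and the same in blood for 15. Heart and skin shared 9 genes that were at 0 in every other library. There were 23 genes at 1 TPM or more in all 26 libraries outside blood and at 0 in the 3 blood libraries, and 0 genes with that pattern for heart.

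A set of genes was alike in both tissues. The 95% interval of the log2 difference lay within -1 to 1 for 5464 genes (15.6%) with a mean of 1 TPM or more over the 6 libraries. Of these, 2536 averaged 10 TPM or more and 257 averaged 100 TPM or more. They took 16.9%, 15.1% and 15.1% of TPM in blood replicates 1, 2 and 3, against 16.3%, 15.2% and 16.4% in heart replicates 1, 2 and 3. Like levels in these 6 libraries chose the genes, so near-equal shares follow from the choice and are a description. In 4547 (83.2%) of the 5464 genes all 10 tissues had a mean of 1 TPM or more, where 48.4% of all tested genes did. The choice itself asks for a level in blood and heart. There 99.1% and 99.3% of the alike genes averaged 1 TPM or more, against 76.5% and 92.1% of all tested genes. The share over 10 tissues is thus a description. The highest mean of the alike genes was in ovary for 33.3% and in testis for 28.4%, where it was so for 18.3% and 21.8% of all tested genes. It was in blood for 7.25% and in heart for 4.72%, against 12.6% and 13.0%. Choosing like levels in blood and heart disfavours a highest mean in either, so these shares are a description. Likeness depends on the scale, and 1680 of the 5464 genes were alike on all 3 scales.

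The genes called in each direction were then read in the libraries of the 8 other tissues, which took no part in the comparison. Genes higher in blood took 54.5%, 62.4% and 62.3% of TPM in blood replicates 1, 2 and 3, against 17.2%, 29.1% and 14.1% in heart replicates 1, 2 and 3. Elsewhere they took most in spleen, at 35.0% ± 9.02, and in skin, at 32.1% ± 4.68 (SD, n = 3 each). They took least in testis, at 10.8% ± 1.71 (SD, n = 3). Lung replicate 3, at 38.2%, lay above every skin library. The leading genes of blood at ranks 1, 2, 5 and 6 averaged 32.9% of TPM in blood, 7.46% in spleen and 5.04% in skin. Those at ranks 3, 4, 7 and 8 averaged 16.8%, 2.10% and 0.393% in the same tissues. Most of the share in spleen and skin thus came from other genes of the set. Genes lower in blood took 8.55%, 6.59% and 6.75% in blood replicates 1, 2 and 3, against 45.4%, 37.8% and 48.3% in heart replicates 1, 2 and 3. Their mean share lay between that of blood and that of heart in all 8 other tissues, from 20.9% ± 1.65 in stomach to 34.9% ± 3.55 in liver (SD, n = 3 each). No single library of another tissue fell to the level of blood. The genes were chosen for low levels in blood and high levels in heart. A place between these tissues is thus favoured by the choice and is a description.

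**Figure D4:**
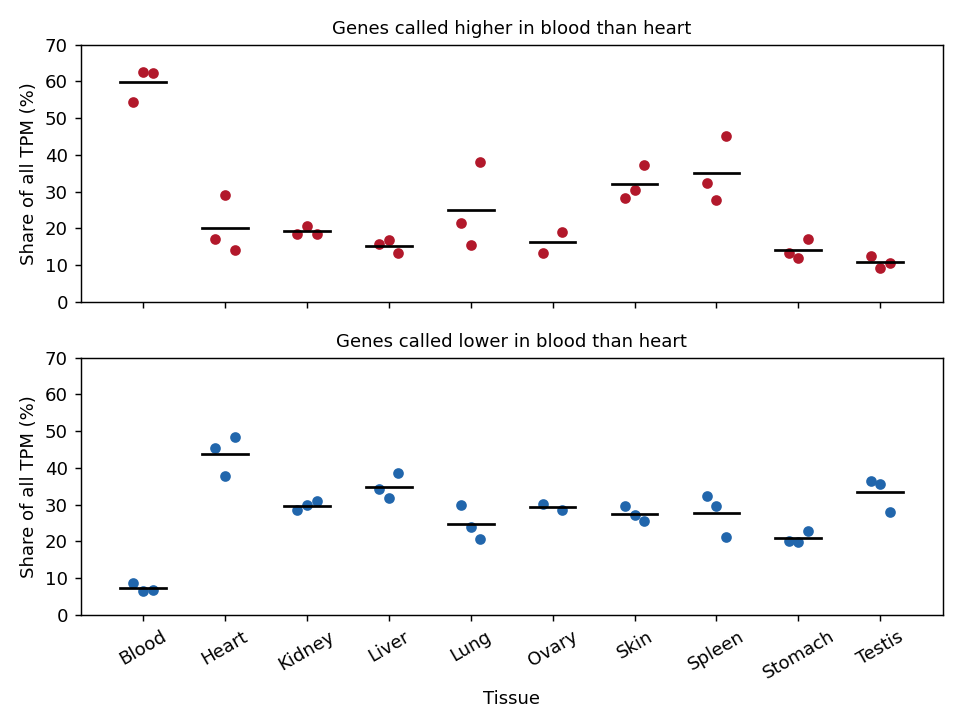
Share of all TPM (%) taken by the 2923 genes called higher in blood (upper panel) and the 9775 called lower (lower panel) in each library, with lines at tissue means. Blood and heart chose the genes, so their points, and the place of other tissues against them, are a description. Spleen and skin hold the highest means of the other tissues in the upper panel, and no other tissue comes down to blood in the lower one.

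Because the heart holds blood, genes of blood were read in the heart libraries one by one. A list of 58 blood-enriched genes was made without the heart. Each had a lowest blood library of 10 TPM or more that was at least 4 times the highest of the 23 libraries of the 8 other tissues. Heart replicates 1, 2 and 3 held these genes at a median of 8.40%, 15.8% and 7.84% of their blood mean, with quartiles of 3.95% and 13.9%, of 9.56% and 24.9%, and of 4.95% and 12.6%. Heart replicate 2 was the highest heart library for 34 of the 58 genes and the lowest for 3. The summed share of these genes was 1.49%, 1.98% and 1.96% of TPM in blood replicates 1, 2 and 3, against 0.155%, 0.378% and 0.135% in heart replicates 1, 2 and 3. A large part of these sums came from 1 gene, rank 8 of the leading blood genes above. It had 5738, 8766 and 10390 TPM in the blood libraries and 378, 1401 and 469 TPM in those of heart. In the comparison 56 of the 58 were called higher in blood, where 8.34% of all tested genes were. As blood levels chose the list, that count is a description.

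Read the other way, most genes enriched in heart were nearly missing from blood. The 176 heart-enriched genes, chosen likewise without the blood libraries, took 0.0116%, 0.00817% and 0.00983% of TPM in blood replicates 1, 2 and 3, against 4.66%, 3.23% and 4.34% in heart replicates 1, 2 and 3. Their median in blood replicates 1, 2 and 3 was 0.0173%, 0% and 0% of their heart mean, with upper quartiles of 0.359%, 0.158% and 0.138%. The highest single genes reached 27.4%, 25.7% and 24.7% of their heart mean. Of the 176 genes, 80, 98 and 99 were listed at 0 in blood replicates 1, 2 and 3. Among the heart libraries, replicate 2 had the lowest share of heart-enriched genes. It had been singled out beforehand for its high share of genes abundant in blood. Its place in the lists of blood-enriched and of heart-enriched genes is thus a description and no further evidence. What part blood in the heart has in any difference was not tested.

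**Figure D5:**
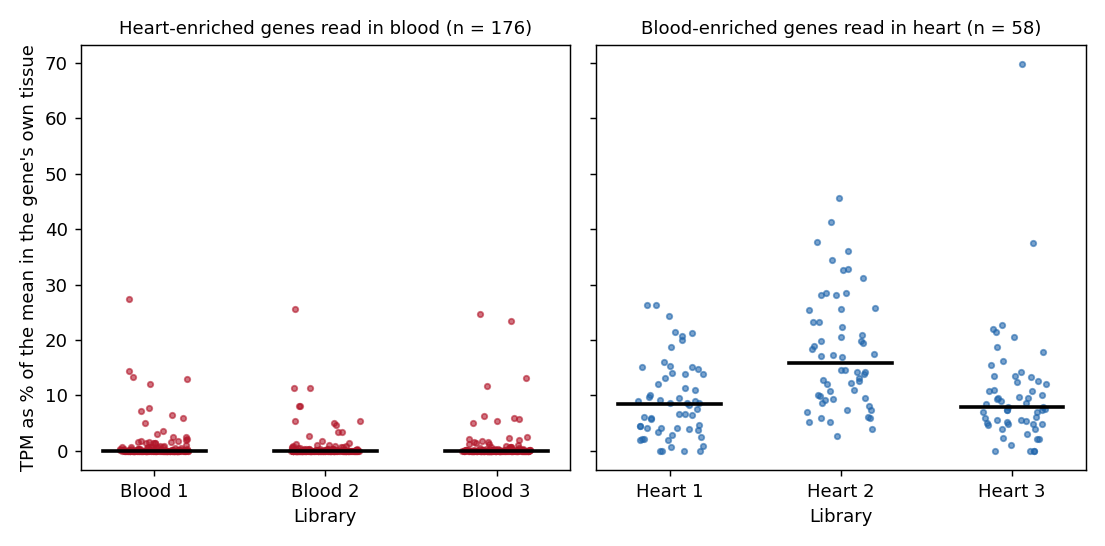
TPM of each gene as a percentage of its mean in its own tissue, for 176 heart-enriched genes read in the blood libraries (left) and 58 blood-enriched genes read in the heart libraries (right), with black lines at medians. Medians in heart are 8.40%, 15.8% and 7.84%, and those in blood are at or close to 0.

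The comparison was repeated without heart replicate 2. Then 2686 genes (7.66%) were higher in blood and 10096 (28.8%) lower, and 2359 and 9077 of these were also called with all 6 libraries. No gene called with all 6 libraries was called in the opposite direction. Among the 9775 genes lower in blood, heart replicate 2 was the lowest heart library for 59.8% and the highest for 12.1%. Over the 32920 tested genes with no tie between heart libraries, it was the lowest for 52.0% and the highest for 18.5%. For the 9775 genes, the log2 difference moved further down in 7538 when this library was left out and up in 2237. Over all 35046 tested genes it moved down in 23229 and up in 11201. Among the higher genes it moved up in 1374 and down in 1222. Heart replicate 2 was singled out for its high share of genes abundant in blood. Genes that take a large share lower the TPM of all others. Its low place among the heart libraries, and the moves when it is left out, are thus favoured by that choice and are a description.

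Pairs of libraries were described by Pearson's r of log2(TPM + 1) over all 53113 genes, which includes the values that singled out heart replicate 2. That library had r of 0.744, 0.741 and 0.737 with blood replicates 1, 2 and 3. Heart replicate 1 had 0.737, 0.716 and 0.717, and heart replicate 3 had 0.717, 0.705 and 0.710. Within blood r was 0.936 to 0.945 and within heart 0.916 to 0.918. These r run across genes, which are not independent replicates, and describe pairs of libraries only.

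Assembled genes of 1 component, which the assembler found to share sequence, did not always move together. Of 3515 components with 2 or more tested genes, 191 held a gene called higher in blood and another called lower. In 71 components 2 or more genes were called and all were higher, and in 564 all were lower. Of all tested genes, 8.34% were called higher and 27.9% lower. Whether these components differ from sets of unrelated genes was not tested, so the counts are a description. Near-identical copies can exchange reads, so the genes of these components are uncertain one by one.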

How the data were processed

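The deposited values are TPM per library, as computed by the authors, per the file headers, and each library sums to 1000000. Row names look like gene IDs of the Trinity assembler. Quantification tools and filters: not given in the sources used here. Libraries were NEBNext Ultra preparations of poly-T selected RNA, per the labels' protocols. Tissue and replicate came from the labels. No gene had an identical value above 0 in any pair of the 6 libraries.

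Rows with 1 TPM or more in 2 or more of the 6 libraries were tested on log2(TPM + 1), blood minus heart, with limma 3.58.1 in R 4.3.3 (trend in the empirical Bayes step), over the 6 libraries only. A call needed an adjusted p (Benjamini-Hochberg) under 0.05 and a log2 difference of at least 1 in size. Fitted differences understate changes of low genes, and TPM allows no counting interval. Single values were tested by exact permutation with scipy 1.17.1. The fit was tested on simulated data. Summaries and figures were made with numpy 2.4.6, pandas 2.3.3 and matplotlib 3.10.9 in Python 3.11.15.

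At most 2 IDs per direction are named, the largest difference and the most abundant among called genes with no overlap between blood and heart libraries. The comparison, lists and alternatives were chosen with earlier results of these data known. Leaving out heart replicate 2 with the filter on the other 5 libraries was added after seeing the data. No genome or sequence was used.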

Additional observations from a re-analysis of the deposited data

How the results depend on the processing

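The counts of genes higher (2923) and lower (9775) in blood stayed within 1.5 times of these values under every setting tried except 2 for the higher genes, which numbered 5057 with median-of-ratios scaling and 6734 with scaling without the most abundant genes. Both scalings moved the median difference of all genes upward. Leaving out each library in turn gave 2445 to 2748 higher and 8342 to 10124 lower genes, and heart replicate 2 left out together with its part in the filter gave 2712 and 10064. Genes alike in both tissues (5464) numbered 3769 to 4516 with a library left out, 2280 with all 29 libraries in the fit and 228 with the interval within -0.5 to 0.5, which is narrower by construction. The cause of the fall with 29 libraries was not tested. The 10 most abundant genes held 27.8 to 34.6 percentage points more of TPM in blood than in heart with a library left out. The difference in genes at 1 TPM or more, blood minus heart, ran from -5988 to -4814.

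With the replicate number as a block, 3091 genes were higher and 9815 lower. Replicates share only a number in the labels. Deviations of same-numbered blood and heart libraries from their tissue means correlated at 0.143, 0.117 and 0.0791 for numbers 1, 2 and 3. Each library correlated best with its own number. These values run across genes, and deviations within a tissue are not independent. Whether same-numbered libraries share an origin was not tested.

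Blood-enriched genes read in heart at a mean of 10.7% of their blood level (median gene), and at 16.0% when chosen at 2 times the other libraries. Heart-enriched genes read in blood at 0.0456% of their heart level when chosen at 2 times and at 0.0202% with a lowest level of 50 TPM, against 0.00577%. With a library left out this value ran from 0% (without blood replicate 1) to 0.00865%, and it was 0.000521% without heart replicate 2, where the list grew to 288 genes from 176. The blood-enriched list grew to 107 genes from 58 without blood replicate 1, and its value ran from 8.12% to 12.1%. The call of TRINITY_DN132001_c0_g1 was also lost without a filter on low values (limma, adjusted p = 0.354), as were those of ranks 2, 5 and 6 in blood. Rank 3 lost its call with all 29 libraries in the fit (limma, adjusted p = 0.0934). The genes named by ID kept their direction in every setting tried, as did the differences in TPM share and in genes at 1 TPM or more. The median log2 difference of all tested genes did not. It was -0.397 in TPM as deposited, -0.0385 with median-of-ratios scaling and 0.133 with scaling without the most abundant genes. Depth is unknown, so what it limits could not be assessed.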
